A study of Mus musculus with 4 samples.

Results

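Chemokine receptors were examined on 4 arrays of the mouse monocyte-macrophage line J774.1. The 9 receptor genes were *Cx3cr1*, *Cxcr3*, *Cxcr4*, *Ccr1*, *Ccr2*, *Ccr3*, *Ccr7*, *Ccrl2*, and *Cxcr2*. They are 9 of the 20129 genes that the array probes could be tied to, and they carried 10 probes. A probe was assigned to a receptor when the transcript accession printed in the scanner file mapped to that symbol in RefSeq for GRCm38.p6. The set was chosen by measured values, because *Cx3cr1* and *Cxcr3* were lower on the inhibitor arrays than on the DMSO array. The differences from DMSO given below are therefore descriptions, and no test was applied to them.

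The cells were kept for 4 hours with 1 μM of a proteasome inhibitor or under DMSO, the solvent of the inhibitors. MG132 is a proteasome inhibitor, epoxomicin is directed at the 20S proteasome, and ONX0914 is directed at the β5 and β5i subunits. Each condition was 1 culture on 1 array, and all 4 arrays lay on 1 slide scanned once, so the spread between cultures is not known and no difference could be tested. The treatment label of the fourth array reads ONX-0912, whereas the protocol and the paper name ONX0914, which is the name used here.

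Chemokine receptors are 7-transmembrane proteins that couple to inhibitory G proteins and steer white blood cells along gradients of chemokines. Monocytes and macrophages are classically recruited through CCR2 and CCR1, patrol and survive through CX3CR1, and are retained in marrow through CXCR4. CXCR3 and CCR7 are best known on T cells and mature dendritic cells, CXCR2 on neutrophils, and CCR3 on eosinophils. CCRL2 is an atypical member that binds chemerin and presents it to neighboring cells without signaling through G proteins.

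The regions before the start sites of 4 receptors are shown as examples of both directions among receptors detected on every array, *Cx3cr1* and *Cxcr3* below DMSO and *Cxcr4* and *Ccr2* above it under MG132 and epoxomicin. They are not the extremes, since *Ccrl2* and *Cxcr2* were further above DMSO. The 250 bases upstream of the annotated start are from RefSeq for GRCm38.p6 and are written 5′ to 3′ on the strand of the gene. They lie at chr9:120068297-120068546 (minus strand) for *Cx3cr1*, chrX:101734148-101734397 (minus strand) for *Cxcr3*, chr1:128592300-128592549 (minus strand) for *Cxcr4*, and chr9:124101933-124102182 (plus strand) for *Ccr2*. Capitals mark matches to any of 8 short motifs on either strand.
Cx3cr1: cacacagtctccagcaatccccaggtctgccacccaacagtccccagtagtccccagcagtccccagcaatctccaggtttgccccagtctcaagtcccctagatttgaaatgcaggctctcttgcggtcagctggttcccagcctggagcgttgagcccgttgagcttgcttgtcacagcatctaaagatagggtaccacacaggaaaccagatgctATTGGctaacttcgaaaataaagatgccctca
Cxcr3: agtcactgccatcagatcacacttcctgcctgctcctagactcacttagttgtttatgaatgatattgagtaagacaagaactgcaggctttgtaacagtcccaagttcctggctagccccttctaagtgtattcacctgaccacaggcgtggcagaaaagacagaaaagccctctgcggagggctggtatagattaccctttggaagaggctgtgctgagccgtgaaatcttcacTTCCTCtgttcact
Cxcr4: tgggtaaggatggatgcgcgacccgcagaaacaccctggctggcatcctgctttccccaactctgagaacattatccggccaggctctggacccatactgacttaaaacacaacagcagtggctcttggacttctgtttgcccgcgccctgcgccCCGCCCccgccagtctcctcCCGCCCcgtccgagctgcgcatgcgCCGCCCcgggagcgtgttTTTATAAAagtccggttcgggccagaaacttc
Ccr2: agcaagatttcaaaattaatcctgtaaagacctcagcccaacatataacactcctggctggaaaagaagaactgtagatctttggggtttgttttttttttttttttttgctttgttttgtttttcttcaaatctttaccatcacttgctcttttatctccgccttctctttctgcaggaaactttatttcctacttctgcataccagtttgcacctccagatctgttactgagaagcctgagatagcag

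The motifs searched were the PU.1 core GAGGAA, the CCAAT box, the interferon response element (GAAA, any 2 bases, GAAA), the NF-κB-type motif (GGG, any 3 bases, TTCC), the STAT palindrome TTCNNNGAA, the AP-1 motif TGANTCA, the TATA box TATAAA, and the GC box GGGCGG. Of 32851 mouse upstream windows of the same length, 23.3% held the PU.1 core, 33.8% CCAAT, and 32.7% the GC box. TATAAA was in 12.4% of the windows, TTCNNNGAA in 7.02%, TGANTCA in 6.75%, the NF-κB-type motif in 4.65%, and the interferon response element in 2.98%. The *Cx3cr1* window held 1 CCAAT match on the reverse strand, 32 bases before the start. The *Cxcr3* window held 1 PU.1 core on the reverse strand, 14 bases before the start. The *Cxcr4* window held 3 GC boxes on the reverse strand and 2 overlapping TATAAA matches, one on each strand, at 32 and 30 bases before the start. The *Ccr2* window matched none of these letters and had a GC content of 37.2%, against 53.6% for *Cx3cr1*, 48% for *Cxcr3*, 61.2% for *Cxcr4*, and a median of 52.4% over all windows. Entries were found for 8 of the 9 receptors, and *Ccr7* had none.

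Each array held 43020 spots that were not controls, and the scanner software called between 60.3% and 63.1% of them well above background. Every one of the 9 receptors was detected in this sense on 1 array or more, and 7 were detected on all 4. The exceptions were *Ccr1*, which was above background on the DMSO array only, and *Cxcr2*, which was above background under MG132 and epoxomicin only. The label of the cells was checked with marker genes. All 9 macrophage markers with a probe, among them *Csf1r*, *Adgre1*, and *Itgam*, were well above background on every array, and their summed signal ran from 277240 under MG132 to 359506 under DMSO. Of T cell markers, *Cd3d*, *Cd3g*, and *Cd8a* were not well above background on any array, whereas *Cd3e*, *Cd4*, and *Lck* were on all, with a summed signal over the 6 markers of 6792 under DMSO, 7921 under MG132, 9009 under epoxomicin, and 8285 under ONX0914. *Lck* was 2.40-fold higher under MG132 and 2.70-fold higher under epoxomicin than under DMSO, *Mertk* was 2.05-fold higher under MG132, and *Lyz2* was 2.02-fold lower under epoxomicin. The part of these marker shifts in the receptor values was not tested. Among B cell, NK cell, and dendritic cell markers, *Cd79b*, *Gzma*, and *Zbtb46* were the only ones well above background, and none of them differed from DMSO by 2-fold. In a bulk RNA sample, fewer cells with a transcript and less transcript per cell cannot be told apart.

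**Figure D1:**
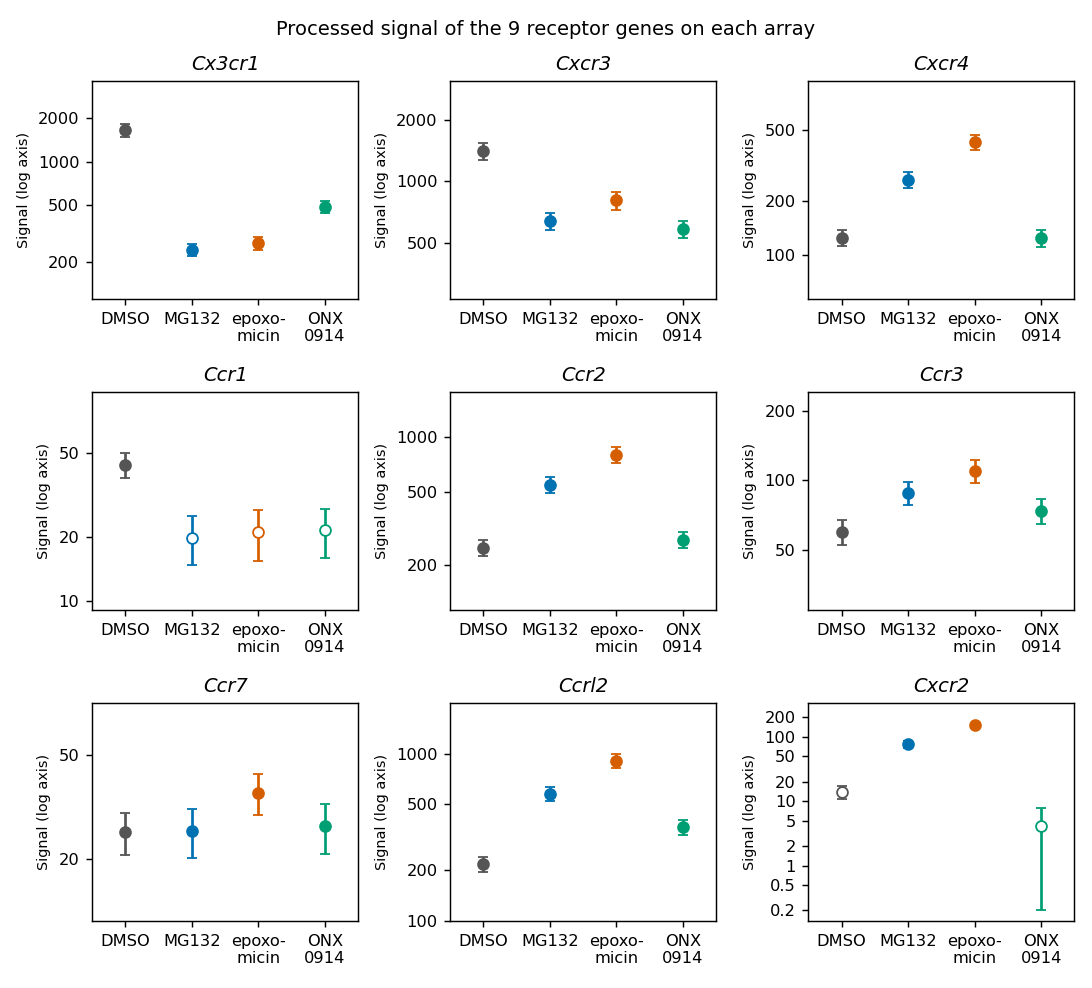
Processed signal of each receptor gene on the DMSO, MG132, epoxomicin, and ONX0914 arrays (log axis, arbitrary units, 1 array per condition); bars are the scanner software's error of the spot, and open circles are signals not well above background. *Cx3cr1* is highest under DMSO at 1642, and *Cxcr2* is detected at 76.4 under MG132 and 151 under epoxomicin only.

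*Cx3cr1* (NM_009987) encodes the receptor for fractalkine, a chemokine that is also a membrane-bound adhesion molecule. Its processed signal, the brightness of the spot after background subtraction, was 1642 ± 164 under DMSO, 245 ± 24.9 under MG132, 272 ± 27.6 under epoxomicin, and 487 ± 48.9 under ONX0914. The ± here is the error that the scanner software gave for the single spot, which covers the spot and not the culture. The DMSO array was highest and the ONX0914 array lay between it and the other two. Signals were log2-transformed and scaled by subtracting each array's 75th percentile, and on that scale the difference from DMSO was -2.56 ± 0.21 under MG132, a 5.88-fold lower value. With epoxomicin it was -2.62 ± 0.21 (6.14-fold lower), and under ONX0914 it was -1.72 ± 0.20 (3.29-fold lower). Among genes well above background on both arrays of a comparison, *Cx3cr1* ranked 4 from the lowest of 13000 under MG132, 10 of 13033 under epoxomicin, and 7 of 12990 under ONX0914. Ordered by the smallest of the 3 decreases, it ranked 4 of the 12728 genes detected on all arrays.

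The fractalkine receptor was the 1 member with a second probe, A_52_P99810, whose values were not used for the ranks. This probe gave signals of 429 under DMSO, 62.3 under MG132, 84.4 under epoxomicin, and 110 under ONX0914. Its differences from DMSO were -2.60 ± 0.22, -2.37 ± 0.22, and -1.92 ± 0.21, in the same order of inhibitors. On the scaled values both probes thus placed DMSO highest and ONX0914 next, and they ordered MG132 and epoxomicin differently, a pair that lay within 2 errors of each other on the main probe.

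*Cxcr3* (NM_009910) encodes the receptor of the interferon-inducible chemokines CXCL9 and CXCL10. Its signal was 1403 under DMSO, 639 under MG132, 805 under epoxomicin, and 584 under ONX0914. DMSO was again the highest array, but here ONX0914 was the lowest, and the 3 inhibitor arrays did not differ between neighbors in that order by more than 2 errors. The difference from DMSO was -0.95 ± 0.20 under MG132, -0.83 ± 0.20 under epoxomicin, and -1.23 ± 0.20 under ONX0914. Of these, only the ONX0914 value, 2.34-fold lower, passed the 2-fold threshold used for counts, and it ranked 58 from the lowest of 12990 genes. With MG132 the *Cxcr3* value depended on the scaling, since it was -1.14 without scaling and -1.05 after a shift to the median, both past the threshold.

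*Ccr1* (NM_009912) encodes a receptor for CCL3, CCL5, and related chemokines on monocytes. It was dim throughout, with a signal of 43.9 ± 5.94 under DMSO, 20.0 ± 5.20 under MG132, 21.2 ± 5.68 under epoxomicin, and 21.6 ± 5.63 under ONX0914. On the inhibitor arrays its signal was not well above background. It exceeded each array's lowest signal well above background (17.8, 20.3, and 19.3), so each difference was formed from the signal itself. The level read was 1.93-fold lower under MG132, 2.11-fold lower under epoxomicin, and 1.98-fold lower under ONX0914. The errors on the log2 scale were 0.42, 0.43, and 0.42, so these are not minimum folds. These values do not say how far below DMSO the transcript lay or whether the inhibitors differed. With normexp, another background correction, fitted without outlier spots, the MG132 bound was -0.04 on the log2 scale and no fold could be formed for the other inhibitors.

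*Ccr2* (NM_009915) encodes the receptor for CCL2, the main route of monocytes into inflamed tissue. Its signal was 247 under DMSO, 551 under MG132, 805 under epoxomicin, and 273 under ONX0914. It was 2.54-fold higher than DMSO under MG132 (log2 difference 1.34 ± 0.21) and 3.20-fold higher under epoxomicin (1.68 ± 0.21). With ONX0914 the difference was 0.18 ± 0.21, within 2 errors of 0.

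*Cxcr4* (NM_009911) encodes the receptor for CXCL12, which holds leukocytes in bone marrow. Its signal was 124 under DMSO, 262 under MG132, 426 under epoxomicin, and 124 under ONX0914. The arrays fell in the same order as for *Ccr2*, under epoxomicin highest and the DMSO and ONX0914 arrays side by side. The difference from DMSO was 1.26 ± 0.21 under MG132 (2.40-fold higher), 1.75 ± 0.21 under epoxomicin (3.37-fold higher), and 0.04 ± 0.21 under ONX0914. The sizes for both receptors depended on the background correction. With normexp fitted over all spots, *Cxcr4* was 0.05 under MG132 and 0.38 under epoxomicin, and *Ccr2* was 0.38 and 0.64. That fit gave the DMSO array a median corrected signal of 379, against 147 to 156 on the other arrays. With normexp fitted without outlier spots, *Cxcr4* was 0.98 and *Ccr2* 1.00 under MG132.

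*Ccrl2* (NM_017466) encodes the atypical chemerin receptor. Its signal was 218 under DMSO, 576 under MG132, 909 under epoxomicin, and 364 under ONX0914, and all neighbors in that order were more than 2 errors apart. It was the only receptor for which this held. The log2 difference from DMSO was 1.59 ± 0.21 under MG132 (3.00-fold higher), 2.03 ± 0.21 under epoxomicin (4.09-fold higher), and 0.77 ± 0.21 under ONX0914 (1.71-fold). The ONX0914 value was -0.02 with normexp over all spots and between 0.73 and 0.77 under the alternatives other than normexp. The gene of its ligand chemerin, *Rarres2*, was not well above background under DMSO, MG132, or epoxomicin and had a signal of 159 under ONX0914, at least 11.1-fold above the DMSO bound. That difference, 3.47 on the log2 scale, was 1.37 with normexp fitted without outlier spots and could not be formed with normexp over all spots.

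*Cxcr2* (NM_009909) encodes the neutrophil receptor for CXCL1, CXCL2, and other chemokines of that group. Its signal was 13.9 ± 3.24 under DMSO and 4.06 ± 3.86 under ONX0914, neither of them well above background. It was 76.4 ± 8.41 under MG132 and 151 ± 15.6 under epoxomicin, both well above background. The MG132 array was thus 5.91-fold above the DMSO bound of 14.7 and the epoxomicin array 10.1-fold, while no fold was formed for ONX0914. The DMSO signal lay within its error of that bound, and the errors on the log2 scale were 0.37 and 0.37. These are therefore not minimum folds. With normexp over all spots no fold could be formed, and with normexp fitted without outlier spots the bounds fell to 0.83 and 1.34 on the log2 scale. Of the neutrophil markers, *Camp* and *Elane* were well above background and *Ngp* was not. Their summed signal, not scaled between arrays, was 2285 under DMSO, 2052 under MG132, 2370 under epoxomicin, and 2639 under ONX0914.

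*Ccr3* (NM_009914) encodes the eotaxin receptor of eosinophils. Its signal was 59.9 under DMSO, 88.2 under MG132, 110 under epoxomicin, and 73.5 under ONX0914. The differences from DMSO, 0.75 ± 0.24, 0.85 ± 0.24, and 0.33 ± 0.25, did not reach 2-fold, and no neighbors in the order were more than 2 errors apart. The MG132 and epoxomicin differences were more than 2 errors from 0, and the ONX0914 difference was not. With normexp fitted without outlier spots the MG132 difference was 0.11. The eosinophil, basophil, and mast cell markers *Epx*, *Prg2*, *Mcpt8*, and *Cpa3* were not well above background on any array. *Ccr7* (NM_007719), the receptor that guides dendritic cells and T cells to lymph nodes, was at 25.4 under DMSO, 25.6 under MG132, 35.7 under epoxomicin, and 26.6 under ONX0914. Its differences were 0.20 ± 0.40, 0.47 ± 0.37, and 0.10 ± 0.41, each within 2 errors of 0.

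**Figure D2:**
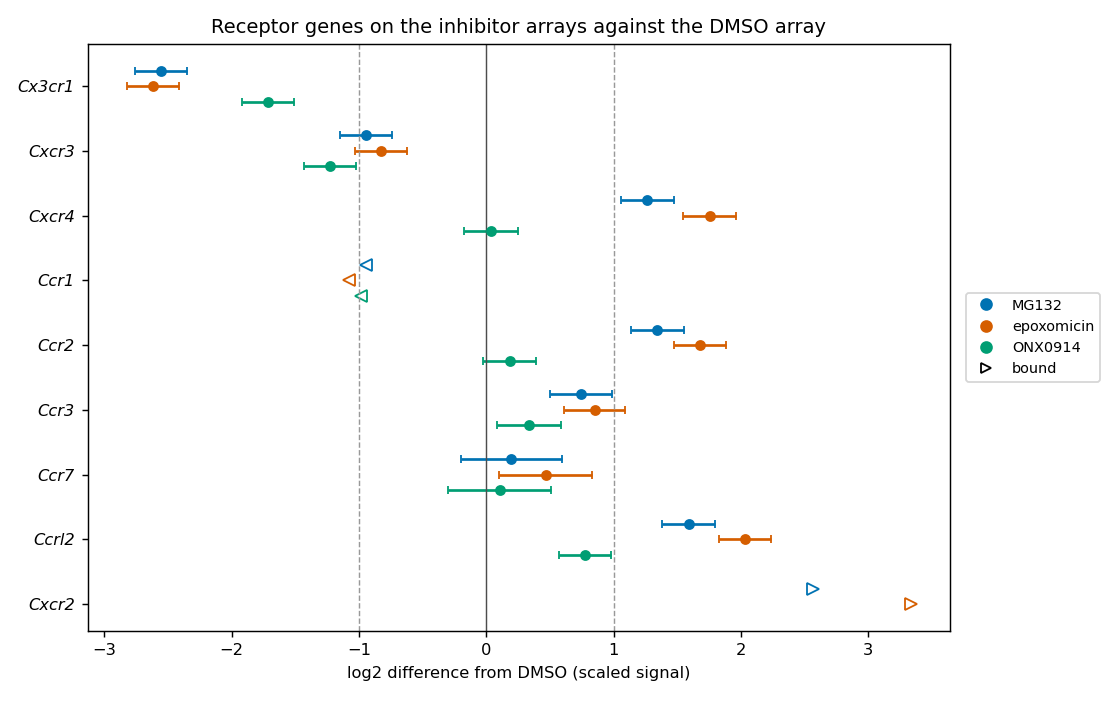
Log2 difference of each receptor gene on the MG132, epoxomicin, and ONX0914 arrays from the DMSO array, with bars for the scanner software's error, triangles for bounds, and dashed lines at 2-fold. *Cx3cr1* lies beyond 2-fold below DMSO with every inhibitor, and *Cxcr4*, *Ccr2*, *Ccrl2*, and *Cxcr2* lie beyond 2-fold above it under MG132 and epoxomicin only.

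Counted at 2-fold, 4 of the 9 receptors were higher under MG132 (*Cxcr4*, *Ccr2*, *Ccrl2*, and *Cxcr2*), where 7.13% of all 13985 genes compared were higher, and 1 was lower (*Cx3cr1*), where 3.6% were lower. Without scaling, the split over all genes under MG132 changed from 997 higher and 503 lower to 739 higher and 903 lower, and after a shift to the median it was 839 and 693. The same 4 receptors were higher under epoxomicin, where 8.3% of 14040 genes were higher, and *Cx3cr1* and *Ccr1* were lower, where 4.44% of genes were lower. With ONX0914, 0 of the 8 receptors with a value were higher and 2, *Cx3cr1* and *Cxcr3*, were lower, where 3.23% of 13976 genes were higher and 1.39% lower. The median difference of the receptors was 0.75 under MG132, 0.85 under epoxomicin, and 0.07 under ONX0914, and that of all genes was -0.02, -0.04, and -0.01. *Cxcr2* entered the MG132 and epoxomicin counts only through the inhibitor array, so it could only come out higher or without a fold. *Ccr1* entered every count only through the DMSO array, so it could only come out lower or without a fold. The values of both are also in the medians. These comparisons share the DMSO array and were the basis on which the receptors were chosen, so nothing is read from the counts. With normexp over all spots the 3 medians of the receptors were -0.95, -0.94, and -1.09.

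The inhibitor arrays were then compared with each other at the same concentration and time, which leaves the DMSO array out. Between epoxomicin and MG132, 0 of the 8 receptors with a value were at least 2-fold higher or lower, and 0.785% and 0.719% of 13629 genes were. The receptor with the widest gap was *Cxcr2*, which was 0.77 ± 0.22 higher under epoxomicin, a 1.70-fold difference. *Cxcr4*, *Ccrl2*, and *Ccr2* were 0.49 ± 0.21, 0.45 ± 0.20, and 0.34 ± 0.20 higher under epoxomicin, and *Cx3cr1* was -0.06 ± 0.21. The median over the receptors was 0.30, against 0.00 over all genes.

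Against MG132, the ONX0914 array had 3 of 8 receptors at least 2-fold lower and 0 higher, where 3.05% of 13705 genes were lower and 1.07% higher. These were *Cxcr4* at -1.23 ± 0.21, *Ccr2* at -1.16 ± 0.21, and *Cxcr2*, which was at least 4.39-fold lower. *Cxcr2* entered this comparison only through the MG132 array, so it could only come out lower or without a fold. *Ccrl2* was at -0.81 ± 0.20 and *Cxcr3* at -0.28 ± 0.20. *Cx3cr1* went the other way and was 0.84 ± 0.21 higher under ONX0914, rank 129 from the highest of 12854 genes. With normexp, 0 receptors passed the 2-fold threshold in this comparison.

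Against epoxomicin, the ONX0914 array had 4 of 8 receptors at least 2-fold lower and 0 higher, where 4.38% of 13790 genes were lower and 1.56% higher. They were *Cxcr4* at -1.72 ± 0.21, *Ccr2*, 2.82-fold lower, *Ccrl2* at -1.26 ± 0.20, and *Cxcr2*, at least 7.48-fold lower. Here too *Cxcr2* entered only through the other array, epoxomicin, and could not come out higher. *Cx3cr1* was 0.90 ± 0.21 higher under ONX0914, rank 194 from the highest of 12857 genes. *Cxcr3* was at -0.40 ± 0.20. The receptors thus did not share a direction between ONX0914 and the other inhibitors, and their median was -0.61 against MG132 and -0.89 against epoxomicin, where all genes had medians of 0.02 and 0.05. With 1 array per compound these are values without a test.

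**Figure D3:**
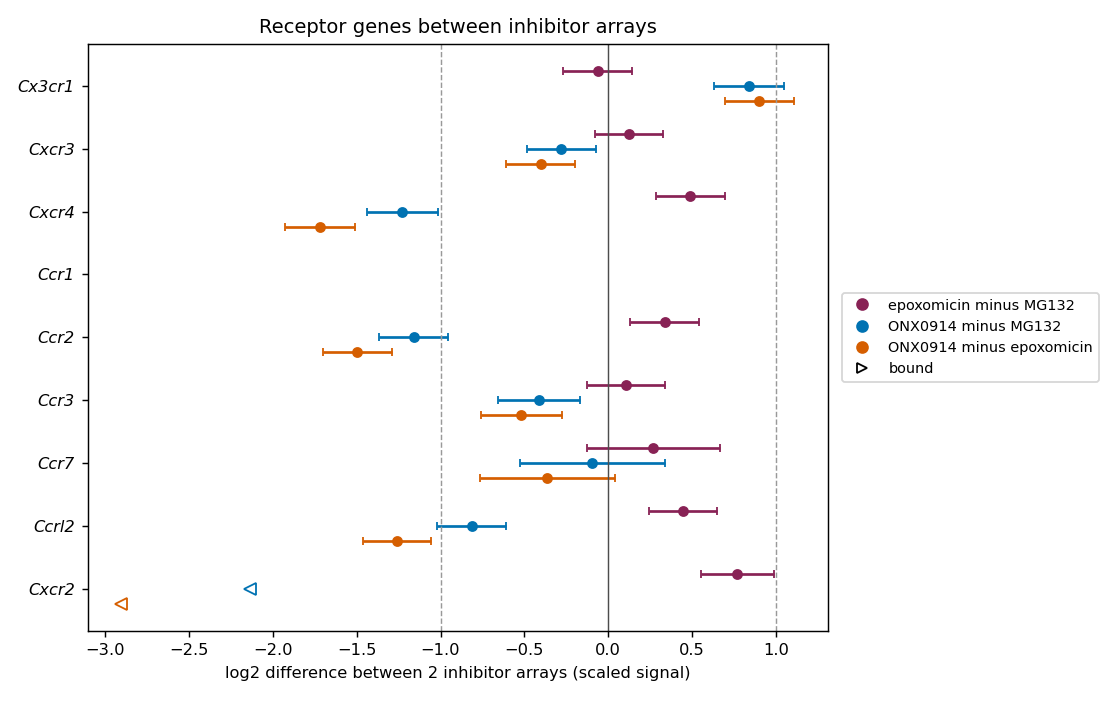
Log2 difference of each receptor gene between pairs of inhibitor arrays (epoxomicin minus MG132, ONX0914 minus MG132, ONX0914 minus epoxomicin), with bars for the scanner software's error, triangles for bounds, and dashed lines at 2-fold. *Cxcr4*, *Ccr2*, and *Cxcr2* lie beyond 2-fold lower under ONX0914 than with either other inhibitor, *Cx3cr1* lies above 0 in both, and *Ccr1* has no value because it was not well above background on these arrays.

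Of the 9 receptors, 5 have their gene on chromosome 9, and their neighbors there gave values of their own. In RefSeq order *Ccr1* is followed by *Ccr1l1*, *Ccr3*, and *Ccr2*. Along this row the differences from DMSO under MG132 were 1.93-fold lower for the dim *Ccr1*, -0.77 for *Ccr1l1*, 0.75 for *Ccr3*, and 1.34 for *Ccr2*. With epoxomicin they were 2.11-fold lower, -0.98, 0.85, and 1.68, in the same order. The first pair of the row thus lay below DMSO and the next pair above it, although *Ccr3* was at -1.03 with normexp over all spots. *Cx3cr1* lies beside *Ccr8*, whose differences were -0.02 under MG132, -0.07 under epoxomicin, and -0.19 under ONX0914. CCR1 and CCR1L1 are close relatives in sequence, and whether their probes pick up each other's transcripts was not tested.

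The other 15 chemokine receptor genes on the array were mostly dim, and the software placed 10 of them well above background on some array. With MG132, 1 of 9 compared was at least 2-fold higher (*Ackr2*), under epoxomicin 2 of 9 (*Cxcr5* and *Ackr2*), and under ONX0914 1 of 10 (*Ackr1*), while 0 were lower. Over all genes the shares higher were 7.13%, 8.3%, and 3.23%, and those lower were 3.6%, 4.44%, and 1.39%. With so few receptors compared, nothing is read from the 0 lower. The medians of the list were -0.03, -0.07, and -0.16. *Ackr2* encodes a scavenger of inflammatory CC chemokines and had a signal of 24.9 under DMSO, 46.8 under MG132, 63.5 under epoxomicin, and 20.8 under ONX0914. Its MG132 value, 2.14-fold higher, fell below the threshold without scaling (0.91), after a shift to the median (0.99), after quantile normalization, and with the mean over its probes (0.78). Its epoxomicin value also fell below the threshold with the mean over its probes (0.85). With normexp over all spots these dim receptors gave medians of -1.02, -1.14, and -1.11, and with either normexp correction 0 of them were higher.

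Of 24 genes for ligands of the 9 receptors, 22 had a named probe and 15 or 16 could be compared. At 2-fold, 7 were higher under MG132, 6 under epoxomicin, and 6 under ONX0914, and 1, *Ccl24*, was lower under epoxomicin. Over all genes, 7.13%, 8.3%, and 3.23% were higher with the 3 inhibitors and 4.44% were lower under epoxomicin. The medians of the ligand genes were 0.64, 0.68, and 0.39. Higher with every inhibitor were *Cxcl9* and *Cxcl10*, the ligands of CXCR3, *Ccl7*, a ligand of CCR2, *Ccl8*, and *Cxcl2*, a ligand of CXCR2. *Cxcl2* had a signal of 652 under DMSO, 7711 under MG132, 6613 under epoxomicin, and 2919 under ONX0914. *Ccl7* had signals of 24160, 132569, 165713, and 71929, in the same order of arrays.

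The ligands of the other receptors did not follow one pattern. *Ccl2*, the chief ligand of CCR2, was 0.64, 0.68, and 0.41 above DMSO. *Ccl3*, *Ccl4*, and *Ccl5*, ligands of CCR1, were at 1.02, 0.62, and -0.17 under MG132, where the *Ccl3* value fell to 0.83 without scaling. With epoxomicin they were at 0.99, 0.64, and -0.16, and under ONX0914 at 0.24, 0.37, and -0.18. *Cx3cl1* and *Cxcl12*, which encode the ligands of CX3CR1 and CXCR4, were not well above background on any array, nor were *Cxcl1* and *Cxcl3*.

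Among 30 genes of chemokine receptor signaling, 26 were compared. *Rgs1* and *Rgs2*, which shorten G protein signaling, were at least 2-fold higher under MG132 and epoxomicin, and *Gng2* and *Pik3cg*, a G protein γ subunit and the catalytic subunit of PI3Kγ, were at least 2-fold lower with both. With ONX0914, 0 were higher and 0 lower, where 3.23% of all genes were higher and 1.39% lower. The 2 of 26 higher are close to the shares over all genes, 7.13% and 8.3%, and 3.6% and 4.44% of all genes were lower. *Rgs1* had a signal of 9350 under DMSO, 54309 under MG132, 68624 under epoxomicin, and 17953 under ONX0914, and its ONX0914 value was 0.98, just short of 2-fold. *Pik3cg* had signals of 3576, 1131, 1326, and 1922. The medians of this list were -0.31, -0.37, and -0.11.

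Receptors for other attractants of myeloid cells were examined in the same way, and 14 of 16 were compared. With MG132, 2 were higher and 3 lower, under epoxomicin 1 higher and 4 lower, and under ONX0914 1 higher and 2 lower. Over all genes the shares higher were 7.13%, 8.3%, and 3.23%, and the shares lower were 3.6%, 4.44%, and 1.39%. *Gpr183*, the oxysterol receptor, was lower with every inhibitor, with signals of 1593 under DMSO, 465 under MG132, 594 under epoxomicin, and 607 under ONX0914. *Fpr2*, a formyl peptide receptor, was also lower with every inhibitor, at -1.16, -1.24, and -1.35, but with normexp fitted without outlier spots it was at -0.44, -0.64, and -0.63. The medians were -0.65, -0.58, and -0.33.

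**Figure D4:**
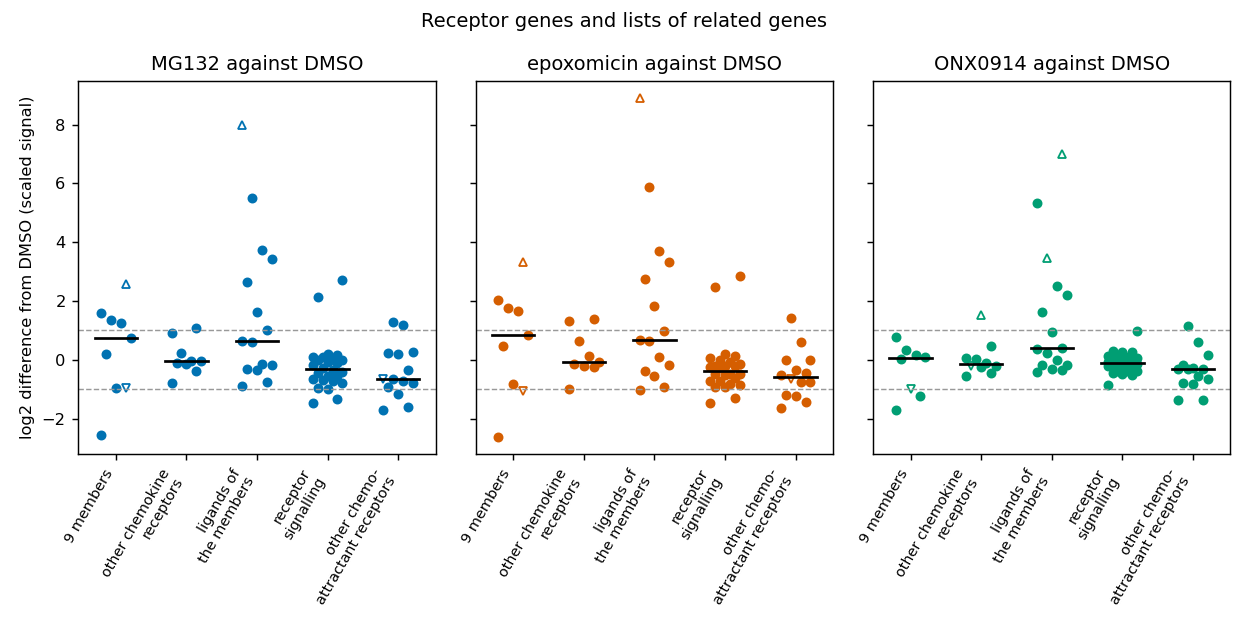
Log2 difference from DMSO of the 9 receptors and of 4 lists of related genes with each inhibitor; each point is a gene, triangles are bounds, black lines are medians, and dashed lines mark 2-fold. The ligand genes reach highest, and the medians of the 9 receptors lie at 0.75 under MG132, 0.85 under epoxomicin, and 0.07 under ONX0914.

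The genes whose 3 differences from DMSO were closest to those of the leading receptors were listed by the root mean square distance, over the 12728 genes detected on all arrays. For *Cx3cr1* they were *Kbtbd11* at a distance of 0.12, *Mxd3* at 0.13, *B3gnt7* at 0.14, *9930012K11Rik* at 0.21, and *Dusp7* at 0.21. *Kbtbd11* had a signal of 3493 under DMSO, 556 under MG132, 636 under epoxomicin, and 1120 under ONX0914. The arrays fell in the order seen for *Cx3cr1*, which picking by this distance favors. *Mxd3* differed from DMSO by -2.41, -2.44, and -1.70. For *Cxcr3* the nearest were *E2f8* at 0.09, *Ublcp1* at 0.09, *Abhd15* at 0.14, *Megf9* at 0.14, and *Rest* at 0.15. *E2f8* had signals of 7416, 3167, 4495, and 3330. The likeness rests on 3 differences that share the DMSO array.

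The receptors differed in how far they depended on the processing. *Cx3cr1* lay between -2.74 and -2.20 under MG132, between -2.69 and -2.25 under epoxomicin, and between -1.82 and -1.67 under ONX0914 over all alternatives. *Cxcr3* lay between -1.14 and -0.82, between -0.90 and -0.80, and between -1.27 and -1.11. For *Cxcr4*, *Ccr2*, *Ccrl2*, and *Cxcr2* under MG132 and epoxomicin the normexp values were the lowest. *Ccr3*, *Ccr7*, *Cxcr4*, *Ccr2*, and *Ccrl2* changed sign with normexp in at least 1 comparison with DMSO, none of them from a value past 2-fold. *Cxcr4* under ONX0914, which lay near 0, also reached -0.01 under the alternatives other than normexp.

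**Figure D5:**
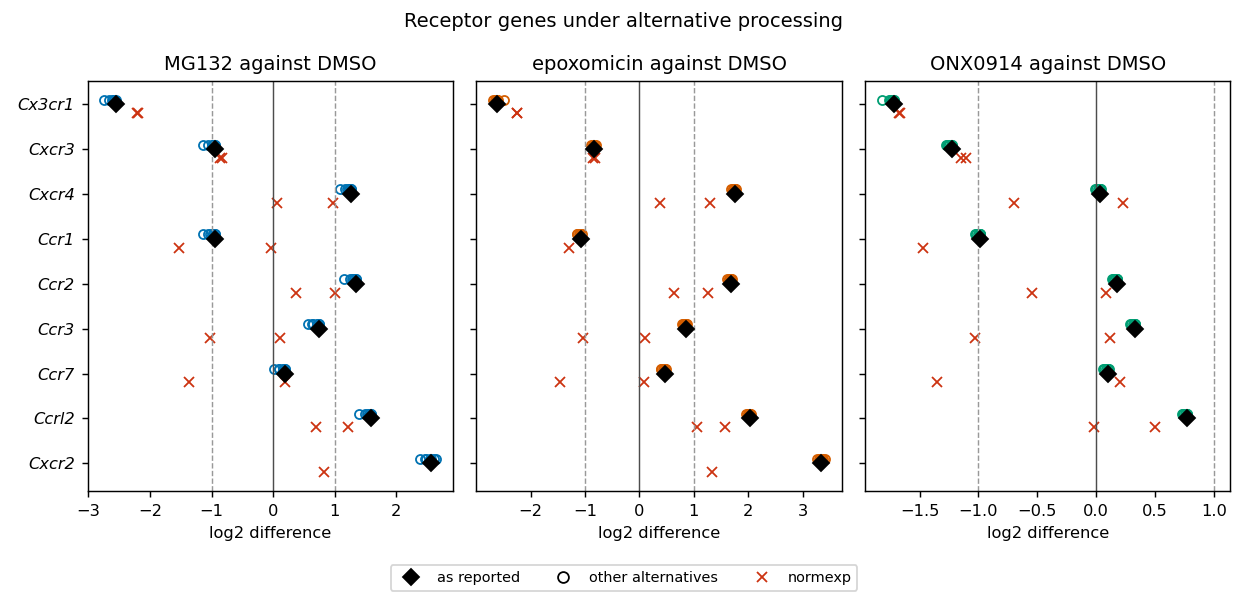
Log2 difference of each receptor gene from DMSO as reported (diamonds), under both normexp corrections (crosses), and under the other alternatives (circles); horizontal scales differ between the panels for MG132, epoxomicin, and ONX0914. *Cx3cr1* and *Cxcr3* stay below 0 throughout, and the crosses of *Cxcr4*, *Ccr3*, and *Ccr7* lie apart from their diamonds in at least 1 panel.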

How the data were processed

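RNA of J774.1 cells was hybridized to 4 single-color arrays, 1 per condition (DMSO, MG132, epoxomicin, and ONX0914). The Methods name a human array, whereas the scanner headers describe a mouse design, and probes were named through mouse RefSeq (GRCm38.p6). Of 39429 probes, 26575 received a symbol. The authors deposited the intensity of every spot as processed by Feature Extraction 10.7.1.1, which is background-subtracted within the array and not scaled between arrays, together with the software's error and its 0 or 1 calls. The log2 table that the authors deposited was made with GeneSpring, relative to each probe's median, and served as an alternative. The GeneSpring version is not given in the sources used here.

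Control spots and spots marked as nonuniform or population outliers (159 to 194 per array) were left out. The log2 of the processed intensity minus the array's 75th percentile (a signal of 1654, 1453, 1683, and 1612) was averaged over spots of a probe, and the probe with the highest mean stood for a gene. Genes were compared between arrays where the software called them well above background on either one. A signal not well above background was replaced by a bound, the higher of its own value and the array's lowest signal well above background (14.7, 17.8, 20.3, and 19.3). Errors are the software's, propagated to log2. The number of arrays limits the precision. The median SD between spots of one probe was at most 0.0611 on the log2 scale.

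The 9 receptors, the gene lists, and the alternatives were chosen with earlier results of these data known. Named genes were the receptors, list genes past 2-fold with every inhibitor, the ligands of the receptors, marker genes, and the 5 nearest genes of *Cx3cr1* and of *Cxcr3*. Genes of the lists that passed 2-fold with fewer inhibitors and neighbors on the chromosome were named after their values were seen. *Cd68*, *Ly6g*, *Cxcl11*, and *Ccl21a* had no probe that could be named and were not analysed here. A result on 1 other gene is not reported here. Alternatives were normexp (offset 50) over all spots or without outlier spots, other scalings, the authors' table, the mean over probes, the signal in place of a bound, thresholds of 1.5-fold and 4-fold, and other filters on dim probes. Counts and medians between inhibitors, and the lists, were put under these alternatives after seeing the data. The calculations were tested on simulated data. Python 3.11.15, numpy 2.4.6, pandas 2.3.3, matplotlib 3.10.9, R 4.3.3, and limma 3.58.1 were used.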

Additional observations from a re-analysis of the deposited data

How the results depend on the processing

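No paired analysis was possible because each condition had 1 array. Of 446 values of single receptors under an alternative, 380 moved by less than their error, 66 moved further, and 0 values past 2-fold changed sign. Of 210 counts and medians, 181 stayed and 29 moved. The count of receptors higher with MG132 (4) was 0 with normexp over all spots, 2 with normexp without outlier spots, and 1 at 4-fold. The count lower with MG132 (1) was 4 with normexp over all spots, 3 after a shift to the median, 2 after quantile normalization, 3 without scaling, and 3 at 1.5-fold. The MG132 median (0.75) was -0.95 with normexp over all spots and 0.19 without outlier spots. With epoxomicin the count higher (4) was 1 with normexp over all spots and 2 at 4-fold, and the count lower (2) was 4 with normexp over all spots, 1 with normexp without outlier spots, 1 at 4-fold, and 1 among genes well above background on every array. The epoxomicin median (0.85) was -0.94 with normexp over all spots. With ONX0914 the count higher (0) was 1 at 1.5-fold, the count lower (2) was 5 with normexp over all spots and 0 at 4-fold, and the median (0.07) was -1.09 with normexp over all spots. Between epoxomicin and MG132, 1 receptor was higher at 1.5-fold, and the median (0.30) was 0.51 without scaling. Between ONX0914 and MG132, 1 was higher at 1.5-fold, and the count lower (3) was 0 with either normexp and 1 at 4-fold. Between ONX0914 and epoxomicin, 1 was higher at 1.5-fold, and the count lower (4) was 1 at 4-fold. Normexp over all spots gave the DMSO array a median corrected signal of 379, against 147 to 156 on the other arrays, and without outlier spots it was 148. Over all genes, the counts higher and lower with MG132 (997 and 503) ran from 270 to 2058 and from 48 to 2483 over the alternatives. Those with epoxomicin (1166 and 623) ran from 335 to 2275 and from 60 to 2988, and those with ONX0914 (451 and 194) from 114 to 1047 and from 20 to 2664. Between epoxomicin and MG132 (107 and 98) they ran from 8 to 404 and from 11 to 422, between ONX0914 and MG132 (147 and 418) from 14 to 703 and from 62 to 1205, and between ONX0914 and epoxomicin (215 and 604) from 15 to 973 and from 117 to 1552. Without scaling, the median difference from DMSO over the genes detected on all arrays was -0.21 for MG132, -0.02 for epoxomicin, and -0.04 for ONX0914. *Ccr1*, *Ccr7*, *Ccr3*, and *Cxcr2* lay close to background on at least 1 array, which limits their values.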
